A study of Mus musculus with 16 samples.

Results

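Adhesion between blood leukocytes and the endothelium was followed through 9 genes: the immunoglobulin-family ligands Vcam1, Icam1 and Icam2, the selectins Sele and Selp, the junction proteins Pecam1 and Cdh5, and Itgal and Itgb2, which encode the chains of the leukocyte integrin LFA-1. They were chosen by name, with earlier results of these data known. They are 9 of the 22911 genes to which probes of the array could be assigned, and 12 of its 56605 probes carried their transcripts. The study asked what the loss of Sting does in lupus mice of mixed strain that lack Fcgr2b, the inhibitory Fc gamma receptor. Whole kidneys, which were not perfused, were taken at 6 months of age from 16 mice, 1 mouse to a one-colour Cy3 array. Of these, 4 were wildtype (WT) C57BL/6 mice, 4 were Fcgr2b-ko mice on a mixed 129/C57BL/6 background, 4 were Fcgr2b-ko, Sting-ko mice (DKO) on that same mixed background, and 4 were Sting-ko mice on C57BL/6. Sting loss came from the Goldenticket allele (Sting gt/gt), a functional null that leaves a transcript, and the WT mice were purchased. The study's text heads some lupus groups Fcgr2b-/- Sting wt/gt where the labels say Fcgr2b-ko, so a Sting allele missing from that group too cannot be told from the files. Because every Fcgr2b-ko and DKO mouse was of mixed strain and every WT and Sting-ko mouse was C57BL/6, Fcgr2b genotype and strain cannot be told apart.

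Leukocytes leave the blood in steps. P-selectin and E-selectin on activated endothelium catch passing cells and let them roll, the integrin LFA-1 then binds the ICAM proteins while VCAM-1 holds cells through an integrin of monocytes and lymphocytes, and PECAM-1 and VE-cadherin line the junctions through which the cells cross. In the kidney, VCAM-1 and ICAM-1 are known to be carried by inflamed endothelium and by injured tubular cells, whereas ICAM-2, PECAM-1 and VE-cadherin are present on resting vessels.

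Levels are given as log2 scanner signal after subtraction of the array's 75th percentile, so that 0 is that percentile, and a level is compared between mice for a probe and never between probes. The signal at the 75th percentile ran from 276 to 657 units and 28441 to 35564 probes were well above background on an array. The arrays lay on 2 slides, slide 1 with 2 WT, 3 Fcgr2b-ko, 1 DKO and 2 Sting-ko arrays and slide 2 with the rest. Vcam1, Icam1, Icam2, Pecam1, Cdh5, Itgal and Itgb2 were well above background on all 16 arrays, Selp on 8 and Sele on 1. The 4 mice of a group limit the precision of every value.

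The targeted genes were read first. Fcgr2b signals were 2.13, 1.91, 1.60 and 1.14 in WT mice 1 to 4 and 0.70, 0.02, 0.06 and 0.19 in Fcgr2b-ko mice 1 to 4. In the DKO mice they were -0.04, 0.50, -0.40 and -0.24, and in the Sting-ko mice 1.54, 1.05, 0.70 and -0.19. Every mouse labelled Fcgr2b-ko or DKO lay below every WT mouse, while Sting-ko mouse 4 lay among the Fcgr2b-deficient mice, and the probe stayed well above background in all 16. On a second Fcgr2b probe, also above background in all 16, Sting-ko mice 3 (-1.01) and 4 (-1.43) both lay among the Fcgr2b-deficient mice. Sting1 signals were 1.03, -1.35, -0.59 and 0.00 in WT and 2.69, -0.12, -0.27 and 2.49 in Fcgr2b-ko mice. They were 0.14, 0.90, -0.09 and -0.57 in DKO and 1.01, 0.15, -0.10 and 0.11 in Sting-ko mice. Fcgr2b-ko mice 1 and 4 stood apart as the highest, and the signals did not separate the Sting genotypes, whose mutation leaves the transcript in place. Proximal tubule markers were bright in every kidney, with a mean of 5.57 to 7.55 over 8 genes. All 19 endothelial markers and all 12 markers shared by leukocytes were well above background on enough arrays to be tested. Vessels and leukocytes, whether in blood or in tissue, were thus both represented. Cd79a and Blk of the B-cell markers and Ngp of the neutrophil markers were above background on 0 arrays.

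In Fcgr2b-ko kidneys all 8 adhesion genes that could be tested had a higher mean than in WT kidneys, and 4 of them, Itgb2, Vcam1, Selp and Itgal, by a log2 difference of at least 1. Selp was above background in only 2 WT mice, so the size of its difference depends on the floor of the array. None of the 8 passed the test. The median log2 difference of the 8 was 1.30, beside -0.06 over all 35628 probes tested. With limma, 18 probes, or 0.0505%, were called at an adjusted p under 0.05 and at least 2-fold, and 0 of the 8 members were among them. At an unadjusted p under 0.05 there were 5 members, Itgb2, Itgal, Selp, Vcam1 and Icam1, beside 3.35% of all probes. Without WT mouse 1 or Fcgr2b-ko mouse 2 there were 6, and without Fcgr2b-ko mouse 1 there were 3. Without Fcgr2b-ko mouse 4 or WT mouse 2 there were 2, Itgal and Itgb2. For 0 members did the groups fail to overlap, beside 1.24% of all probes, so a Mann-Whitney test also called 0. An exact test of 4 mice against 4 cannot go below a p of 0.0286, and a p that misses the threshold does not show that values did not differ. The probes that did pass belonged to genes such as Clec4e (log2 difference 6.33), Acod1 (6.10) and Fpr1 (5.63) of myeloid cells and the interferon-inducible Ifi202b (8.03). With only probes above background on all arrays, 0 were called (smallest adjusted p from limma 0.0554). The sizes of these differences may thus depend on the floor of the array. The count of 18 probes also rested on single arrays. It was 0 without WT replicate 2, 3 or 4 or without Fcgr2b-ko replicate 4. It was 3 without Fcgr2b-ko replicate 1 and 37 without Fcgr2b-ko replicate 2. Leaving out any 1 of the DKO arrays or Sting-ko replicate 2 gave 5. Scaling by each array's median in place of its 75th percentile moved the median of all probes to -0.21 and left all 8 members higher in Fcgr2b-ko kidneys. With normexp background correction all 8 were higher too, but only Vcam1 and Itgb2 by at least 1, and the median of the 8 was 0.66. That alternative also took the median spot signal as input in place of the processed signal, so the move cannot be put down to the correction alone.

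**Figure D1:**
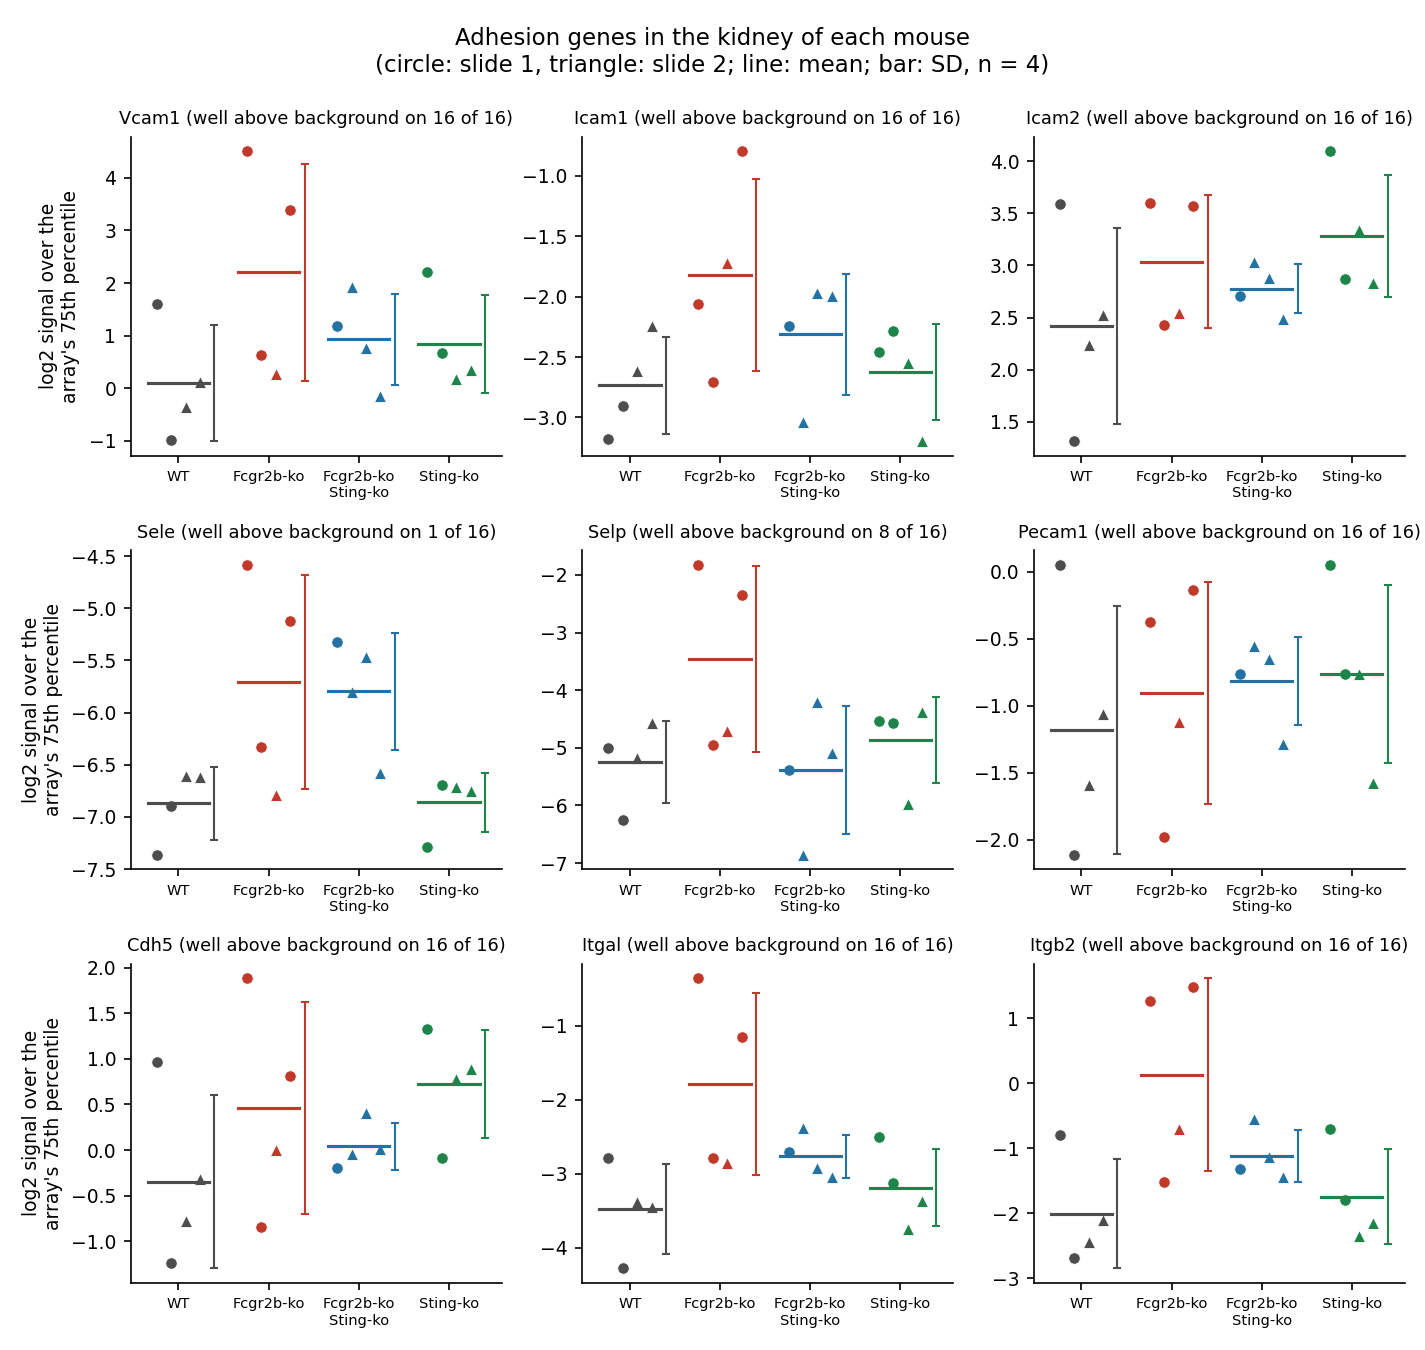
Log2 signal of each adhesion gene over the array's 75th percentile in each of the 16 mice, by genotype, replicates 1 to 4 from left to right, with circles for slide 1, triangles for slide 2, a line at the mean and a bar for the SD (n = 4). In Vcam1, Selp, Itgal and Itgb2 the Fcgr2b-ko mice 1 and 4 stand above the others of their genotype, while WT mouse 1 and Sting-ko mouse 1 are the highest of theirs in Vcam1, Icam2, Pecam1, Cdh5, Itgal and Itgb2.

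Vcam1, the endothelial ligand for monocyte and lymphocyte integrins, showed the widest spread. Its signals were 1.61, -0.99, -0.35 and 0.12 in WT mice 1 to 4 and 4.51, 0.64, 0.28 and 3.39 in Fcgr2b-ko mice 1 to 4. DKO mice gave 1.18, 1.92, 0.76 and -0.15 and Sting-ko mice 2.21, 0.67, 0.17 and 0.34. Fcgr2b-ko mice 1 and 4 were the highest of all 16, Fcgr2b-ko mice 2 and 3 lay inside the WT range, and so the groups overlapped. Group means ± SD (n = 4) ran from 0.10 ± 1.11 in WT through 0.85 ± 0.93 in Sting-ko and 0.93 ± 0.87 in DKO to 2.20 ± 2.07 in Fcgr2b-ko kidneys, with no neighbours apart beyond their spread. The Fcgr2b-ko mean was higher than the WT mean by 2.11 log2 (SE 0.853), or 4.30-fold, with overlap (exact permutation p = 0.143, n = 4 each). It was 2.54 on slide 1, 0.39 on slide 2 and 1.83 with slide as a block. Without Fcgr2b-ko mouse 1 the difference was 1.34. A second Vcam1 probe, above background on 14 arrays, put Fcgr2b-ko mice 1 and 4 at 0.55 and -0.56 and the other 14 mice between -4.86 and -1.84. Within a genotype the SD of Vcam1 was 1.34, larger than in 96.5% of 16382 other named genes tested, whose median was 0.51.

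Icam1, a ligand of LFA-1 that inflammatory cytokines induce, followed another pattern. It stood at -3.18, -2.91, -2.61 and -2.24 in WT mice and at -2.06, -2.70, -1.72 and -0.80 in Fcgr2b-ko mice. The DKO values were -2.24, -3.04, -1.97 and -1.99 and the Sting-ko values -2.45, -2.29, -2.55 and -3.20. Fcgr2b-ko mice 1, 3 and 4 were above every WT mouse and mouse 2 was not. WT mouse 1, high in most other adhesion genes, was the lowest WT mouse for Icam1. The Fcgr2b-ko mean was higher than WT by 0.92 log2 (SE 0.38; exact permutation p = 0.0857, n = 4), by 1.19 on slide 1, by 0.71 on slide 2 and by 0.93 with slide as a block. Without Fcgr2b-ko mouse 4 it was higher by 0.57, and with normexp background correction by 0.53.

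Icam2, a ligand of LFA-1 on resting endothelium and platelets, differed less. Its signals were 3.59, 1.31, 2.24 and 2.53 in WT mice and 3.60, 2.43, 2.54 and 3.57 in Fcgr2b-ko mice. They were 2.71, 3.04, 2.88 and 2.49 in DKO mice and 4.09, 2.87, 3.34 and 2.83 in Sting-ko mice. The WT group held both the lowest value and one of the highest, and all groups overlapped. The order of the means was WT (2.42), DKO (2.78), Fcgr2b-ko (3.04) and Sting-ko (3.28). The mean was higher than WT by 0.62 log2 in Fcgr2b-ko kidneys and by 0.87 in Sting-ko kidneys (exact permutation p = 0.286 and 0.171, n = 4), with overlap in each case. The Fcgr2b-ko difference was 0.25 without WT mouse 2, 1.01 without WT mouse 1, 0.75 on slide 1, 0.16 on slide 2 and 0.55 with slide as a block.

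The selectins were near the floor of the array. Sele, which encodes E-selectin of cytokine-activated endothelium, was well above background only in Fcgr2b-ko mouse 1, at -4.58, and was not tested. Its next highest signals were those of Fcgr2b-ko mouse 4 (-5.12) and DKO mouse 1 (-5.33). The DKO signals, -6.58 to -5.33, and the WT signals, -7.36 to -6.61, did not overlap, yet all 8 were at background, so no fold is given. Selp, which encodes P-selectin of platelets and endothelium, was above background in 2 WT, 3 Fcgr2b-ko, 1 DKO and 2 Sting-ko mice. Its signals were -5.01, -6.24, -5.18 and -4.56 in WT mice and -1.83, -4.96, -4.71 and -2.34 in Fcgr2b-ko mice. DKO mice gave -5.39, -6.85, -4.20 and -5.09 and Sting-ko mice -4.53, -4.57, -5.97 and -4.38. Fcgr2b-ko mice 1 and 4 were again the highest of the 16, and the other Fcgr2b-ko mice lay among the WT mice. A pair of further Selp probes was above background in those same mice 1 and 4 and in no other, at -3.70 and -4.47 for one and -2.90 and -4.67 for the other. The Fcgr2b-ko mean exceeded the WT mean by 1.79 log2 (SE 0.71, exact permutation p = 0.114, n = 4), with overlap. The difference was 2.58 on slide 1, 0.15 on slide 2, 1.71 with slide as a block and 0.60 with normexp. Because WT signals of Selp lie partly at background, that difference carries no fold.

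For the selectins and Icam1 the promoter, from 250 bases before to 50 bases after the transcription start, was held in the RefSeq table for GRCm38.p6; the other 6 genes had no entry. They are shown because no other member had an entry, and all 3 encode proteins that endothelium displays when it is activated. Capitals mark matches on either strand to GGNNNTTCC, a short form of the sequence that NF-kB proteins bind, and to TATAAA. Sele lies at chr1:164047984-164048283, Selp at chr1:164115014-164115313 and Icam1 at chr9:21015690-21015989, all read on the plus strand.

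Sele: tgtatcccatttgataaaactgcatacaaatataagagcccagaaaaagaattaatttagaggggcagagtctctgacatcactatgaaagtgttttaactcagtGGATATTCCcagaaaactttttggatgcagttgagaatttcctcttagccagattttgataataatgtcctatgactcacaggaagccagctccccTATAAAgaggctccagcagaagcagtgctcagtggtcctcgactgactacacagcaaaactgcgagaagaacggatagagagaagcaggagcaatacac
Selp: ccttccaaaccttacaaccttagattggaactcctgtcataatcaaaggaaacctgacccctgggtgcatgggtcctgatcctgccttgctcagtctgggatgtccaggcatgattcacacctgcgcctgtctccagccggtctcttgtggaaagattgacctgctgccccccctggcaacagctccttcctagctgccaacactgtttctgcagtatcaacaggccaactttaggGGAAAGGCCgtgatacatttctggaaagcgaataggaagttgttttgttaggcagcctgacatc
Icam1: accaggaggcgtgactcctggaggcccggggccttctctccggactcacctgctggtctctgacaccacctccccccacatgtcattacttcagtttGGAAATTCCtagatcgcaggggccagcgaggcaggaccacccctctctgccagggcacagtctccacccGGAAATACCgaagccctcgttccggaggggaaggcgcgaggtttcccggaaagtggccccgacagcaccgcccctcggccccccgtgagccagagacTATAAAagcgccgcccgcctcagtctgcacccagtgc

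The Sele window held 1 match to GGNNNTTCC and 1 to TATAAA. The Selp window held 1 match to GGNNNTTCC, on the minus strand, and 0 to TATAAA. The Icam1 window held 2 stretches that match GGNNNTTCC, of which the first matches on both strands, and 1 TATAAA. Relative to the transcription start, TATAAA began at base -49 in Sele and at base 14, after the start, in Icam1. Of 32851 promoters of this length, 18.5% held GGNNNTTCC and 13.6% held TATAAA, and 2.85% held at least 2 matches to GGNNNTTCC. In that last share a stretch that matches on both strands counts as 2 matches, and the Icam1 window holds 3 in this way. A match describes letters and not a site in use. Sele and Selp lie on chromosome 1 with 1 protein-coding gene between them, and Fcgr2b lies on that chromosome too, with 60 and 58 protein-coding genes between it and Sele and Selp. Strain near Fcgr2b on chromosome 1 and Fcgr2b genotype cannot be told apart.

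Of the junction genes, Pecam1 differed least of all members between Fcgr2b-ko and WT kidneys. Pecam1, present on endothelium, platelets and leukocytes, was at 0.05, -2.11, -1.59 and -1.06 in WT mice and -0.38, -1.98, -1.12 and -0.14 in Fcgr2b-ko mice. Its DKO signals were -0.76, -0.55, -0.65 and -1.29 and its Sting-ko signals 0.05, -0.77, -0.77 and -1.58. All 4 groups overlapped. The Fcgr2b-ko mean was higher by 0.27 log2 (SE 0.482; exact permutation p = 0.686, n = 4), and without WT mouse 2 it was lower, at -0.04. Cdh5, which encodes VE-cadherin of endothelial junctions, was at 0.96, -1.24, -0.78 and -0.32 in WT mice and 1.88, -0.84, 0.01 and 0.81 in Fcgr2b-ko mice. It was at -0.20, -0.05, 0.41 and 0.01 in DKO mice and 1.32, -0.08, 0.78 and 0.89 in Sting-ko mice. Cdh5 was higher in Fcgr2b-ko than in WT kidneys by 0.81 log2 and in Sting-ko than in WT kidneys by 1.07 (SE 0.537 for both; exact permutation p = 0.314 and 0.114, n = 4), with overlap in each case. The Fcgr2b-ko difference was 0.34 without Fcgr2b-ko mouse 1, 0.51 without WT mouse 2 and 1.25 without either WT mouse 1 or Fcgr2b-ko mouse 2.

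The LFA-1 chains came closest to separating the genotypes. Itgb2, the beta chain of LFA-1 and of the myeloid integrins, was at -0.80, -2.68, -2.45 and -2.10 in WT mice and 1.27, -1.52, -0.70 and 1.49 in Fcgr2b-ko mice. It was at -1.32, -0.55, -1.13 and -1.45 in DKO mice and -0.70, -1.79, -2.34 and -2.14 in Sting-ko mice. Fcgr2b-ko mice 1, 3 and 4 were above every WT mouse, and mouse 2 was above all WT mice but the first. The Fcgr2b-ko mean of 0.13 ± 1.48 exceeded the WT mean of -2.01 ± 0.84 (SD, n = 4) by 2.14 log2 (SE 0.615), or 4.40-fold, with an exact permutation p of 0.0571 and an adjusted p from limma of 0.741. It exceeded it by 2.15 on slide 1, 1.57 on slide 2 and 1.99 with slide as a block. Itgal, the alpha chain found on leukocytes alone, was at -2.79, -4.28, -3.38 and -3.45 in WT mice and -0.36, -2.78, -2.85 and -1.15 in Fcgr2b-ko mice. The DKO signals were -2.71, -2.38, -2.93 and -3.04 and the Sting-ko signals -2.50, -3.13, -3.75 and -3.37. Fcgr2b-ko mice 1 and 4 were high, mouse 2 just passed the highest WT mouse and mouse 3 did not. The mean difference of 1.69 log2 (SE 0.498), or 3.23-fold, had an exact permutation p of 0.0571 and an adjusted p from limma of 0.78. It was 2.10 on slide 1, 0.57 on slide 2, 1.56 with slide as a block and 0.91, under 2-fold, with normexp.

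**Figure D2:**
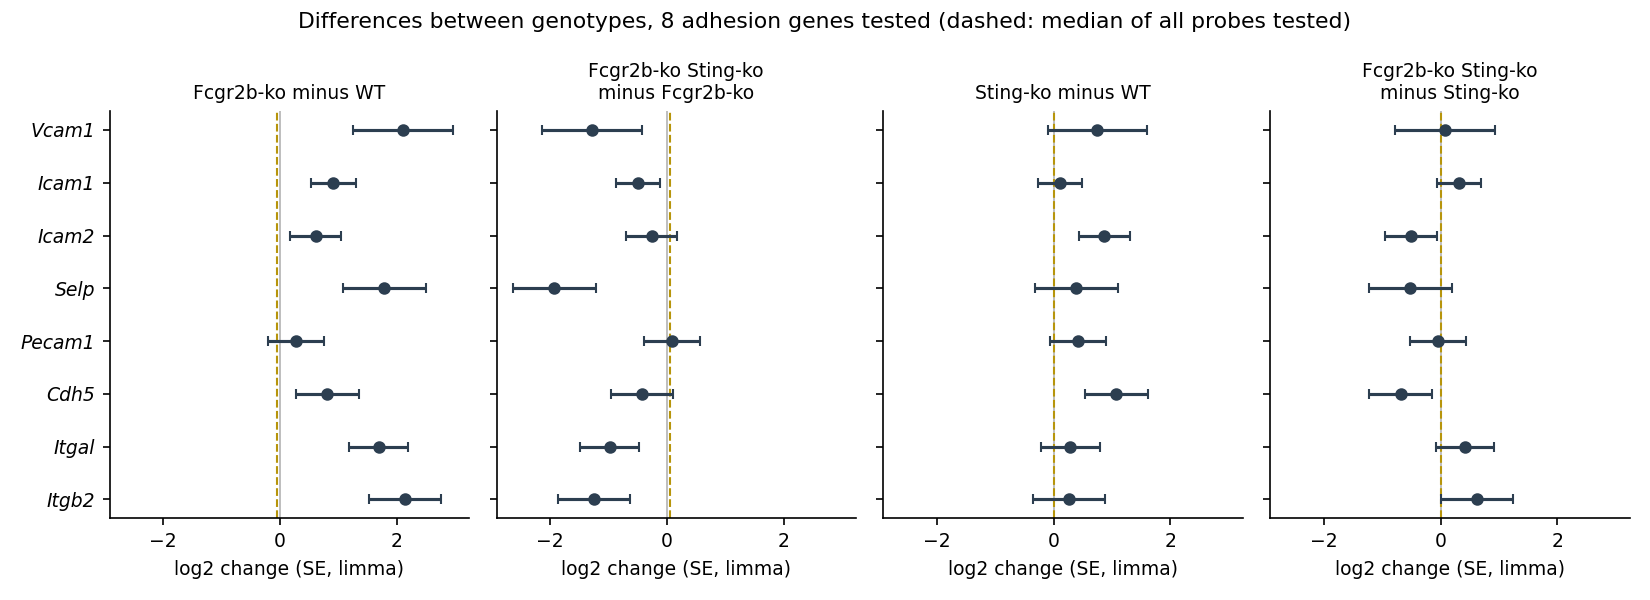
Log2 difference between genotypes of the 8 adhesion genes tested, with its SE from limma, in 4 comparisons of 4 mice each; the dashed line is the median of all probes tested. In Fcgr2b-ko minus WT the points run from 0.27 for Pecam1 to 2.14 for Itgb2, and in none of the comparisons was an adjusted p under 0.05.

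The next question was whether the adhesion genes differ when Sting is also lost. The comparisons that follow share mice with the preceding one, so their values are set side by side and not counted as further evidence. In DKO against Fcgr2b-ko kidneys limma called 0 of the 8 members and 0% of all probes. At an unadjusted p under 0.05 there was 1 member, Selp, beside 1.81% of probes. With normexp, quantile or median scaling there were 3, Selp, Itgal and Itgb2, as there were without Fcgr2b-ko mouse 2; without Fcgr2b-ko mouse 3 there were 4, without WT mouse 1 there were 2, and without Fcgr2b-ko mouse 1 or 4 or DKO mouse 2 there were 0. Of the members, 0 had groups that did not overlap, beside 1.02%, so that Mann-Whitney called 0. The means of 7 genes were lower in DKO kidneys and that of Pecam1 was higher, with a median of -0.73 beside 0.06 over all probes. Selp was above background in only 1 DKO mouse, so the size of its difference depends on the floor of the array, and it was -1.92, or -0.66 with normexp background correction. Vcam1 was lower by 1.28 log2 (exact permutation p = 0.343), Itgb2 by 1.25 (exact permutation p = 0.257) and Itgal by 0.98 (exact permutation p = 0.229), with 4 mice each. No DKO mouse reached the level of Fcgr2b-ko mice 1 and 4 in Vcam1, Selp, Itgal or Itgb2. On slide 2, which held 3 DKO mice and only Fcgr2b-ko mouse 3, the difference was 0.56 for Vcam1, 0.07 for Itgal and -0.34 for Itgb2. On slide 1, which held only 1 DKO mouse, it was -1.66 for Vcam1, -1.28 for Itgal and -1.74 for Itgb2. With slide as a block it was -0.73 for Vcam1, -0.73 for Itgal and -0.94 for Itgb2. Without Fcgr2b-ko mouse 1 the Vcam1 difference was -0.51 and the Itgal difference -0.50, and without Fcgr2b-ko mouse 4 the Itgb2 difference was -0.80; without Fcgr2b-ko mouse 3 the Vcam1 difference was -1.92.

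In DKO against WT kidneys the same count, over the 8 members tested, was 0 by limma, beside 0% of all probes. It was 0 at an unadjusted p under 0.05, beside 0.424%, and 0 without overlap and so by Mann-Whitney, beside 0.547%. The groups did not overlap for the untested Sele, which was at background in both. Among the members tested the largest differences were those of Itgb2 (0.89), Vcam1 (0.83) and Itgal (0.71), and only Selp had a lower mean (-0.13). With normexp Itgb2 was at 0.55 and Itgal at 0.20, below Icam2 at 0.38. Itgb2 was at 0.42 on slide 1 and 1.23 on slide 2, and Vcam1 at 0.47 without WT mouse 2, 0.50 without DKO mouse 2 and 1.33 without WT mouse 1. Itgal was at 0.44 without WT mouse 2. In Sting-ko against WT kidneys limma called 0 members and 0% of probes. At an unadjusted p under 0.05 there were 0 members, beside 3.76% of probes, but 2 without WT mouse 1. Leaving out Fcgr2b-ko mouse 1 or 2 or Sting-ko mouse 2 gave 1. For 0 members did the groups fail to overlap or give a Mann-Whitney p under 0.05, beside 2.04%. Here the 8 means were all higher in Sting-ko mice, Cdh5 by 1.07, Icam2 by 0.87 and Vcam1 by 0.75, down to 0.26 for Itgb2 and 0.11 for Icam1. Without Sting-ko mouse 1 the Vcam1 difference was 0.29, without WT mouse 2 those of Icam2 and Vcam1 were 0.50 and 0.39, and without WT mouse 1 that of Vcam1 was 1.25. The smaller differences did not keep their sign: Icam1 was at -0.13 with median scaling and -0.45 on slide 2, Selp at -0.31 and Itgal at -0.14 on slide 2, and Itgb2 at -0.09 without Sting-ko mouse 1. The endothelial markers were higher in Sting-ko than in WT kidneys in 19 of 19 cases, with a median of 0.92, but so were 7 of 7 markers of mesothelium and fibroblasts (1.02) and 6 of 6 of B and plasma cells (0.88), while markers shared by leukocytes had a median of 0.41 and proximal tubule markers, 0 of 8 higher, one of -0.25. In DKO against Sting-ko kidneys limma again called 0 of the 8 members tested and 0% of probes. Of these members 0 had an unadjusted p under 0.05, beside 3.05%, and 0 lacked overlap or passed Mann-Whitney, beside 2.13%. The groups did not overlap for the untested Sele, which was at background in both. There 4 genes were higher and 4 lower, of which Pecam1, at -0.05, was at 0.34 on slide 2 and 0.05 with slide as a block, and Vcam1, at 0.08, was at -0.25 on slide 1. The interaction, which asks whether losing Sting changes the effect of losing Fcgr2b, was called for 0 members and 0% of probes by limma, and 1 member, Selp, had an unadjusted p under 0.05, beside 6.27% of probes (0 to 4 members with an array left out); Mann-Whitney cannot be applied to it. All 8 estimates were negative, Vcam1 at -2.02, Itgal at -1.27 and Pecam1 at -0.32 among them, but on slide 2 these 3 were positive, at 0.20, 0.21 and 0.14. That of Selp, -2.31, depends on the floor of the array and was -0.75 with normexp and -0.36 on slide 2. The smallest adjusted p from limma was 0.661.

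Fcgr2b-ko mice 1 and 4, WT mouse 1 and Sting-ko mouse 1, the highest of their genotypes in Vcam1, Icam2 and Itgb2 among others, were also the highest of their genotypes in markers of leukocytes, of fibroblasts and of interferon. The mean over the 12 leukocyte markers was 0.95, -0.65, -0.52 and -0.16 in WT mice 1 to 4 and 2.96, 0.41, 0.39 and 2.38 in Fcgr2b-ko mice 1 to 4. It was 0.19, 0.99, 0.28 and 0.00 in DKO mice and 1.16, 0.11, 0.13 and -0.07 in Sting-ko mice. Fcgr2b-ko mice 1 and 4 stood highest, then Sting-ko mouse 1, DKO mouse 2 and WT mouse 1, and of these all but DKO mouse 2 were on slide 1. Cd53 had the largest difference of the list, but it was at background in 4 of 16 mice, so that size and rank depend on the floor of the array. In Fcgr2b-ko against WT kidneys 12 of the 12 were higher, 9 by at least 2-fold, with a median of 1.86, and 0 were called. Macrophage and monocyte markers were higher in 9 of 10 cases with a median of 2.29, led by Lyz2 (3.21) and Ms4a7 (3.05), while Ly6c2 was at -0.21. T-cell markers were higher in 10 of 11 with a median of 1.01, and neutrophil markers in 6 of 6 tested with a median of 1.16. Platelet markers, of interest for Selp, were higher in 5 of 7 tested, with Pf4 at 1.30 and Treml1 at 1.35, and B and plasma cell markers in 4 of 6 tested. In whole kidney, more cells of a type and more RNA per cell cannot be told apart.

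Endothelial markers did not follow the same order of genotypes. Their mean over 19 genes was 2.31, 0.18, 0.64 and 1.20 in WT mice and 2.13, 0.63, 1.24 and 1.86 in Fcgr2b-ko mice. DKO mice gave 1.15, 1.54, 1.56 and 1.17 and Sting-ko mice 2.68, 1.39, 2.13 and 1.65. WT mouse 1 and Sting-ko mouse 1 were the highest of the 16 and WT mouse 2 the lowest. In Fcgr2b-ko against WT kidneys 17 of 19 were higher, with a median of 0.37 and 0 at 2-fold or more. Vwf (0.95) and Cd34 (0.79) led, and Egfl7 was at 0.48. Proximal tubule markers ran the other way, at 6.66, 7.55, 7.41 and 7.06 in WT mice and 5.57, 7.52, 7.37 and 6.65 in Fcgr2b-ko mice. They were at 7.24, 6.79, 7.11 and 7.42 in DKO mice and 6.47, 7.14, 7.01 and 6.75 in Sting-ko mice. The lowest mice were thus Fcgr2b-ko mouse 1 and Sting-ko mouse 1, followed by Fcgr2b-ko mouse 4 and WT mouse 1. Markers of mesothelium and fibroblasts were highest in Fcgr2b-ko mouse 1 (2.72), Sting-ko mouse 1 (1.93) and Fcgr2b-ko mouse 4 (1.63). In Fcgr2b-ko against WT kidneys 7 of 7 were higher, with a median of 0.90, led by Col1a1 (1.84). Podocyte markers were higher in 6 of 6, with a median of 0.92, and red-cell markers in 1 of 5 tested, with a median of -0.26. The part of these cell types in the adhesion values was not tested.

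**Figure D3:**
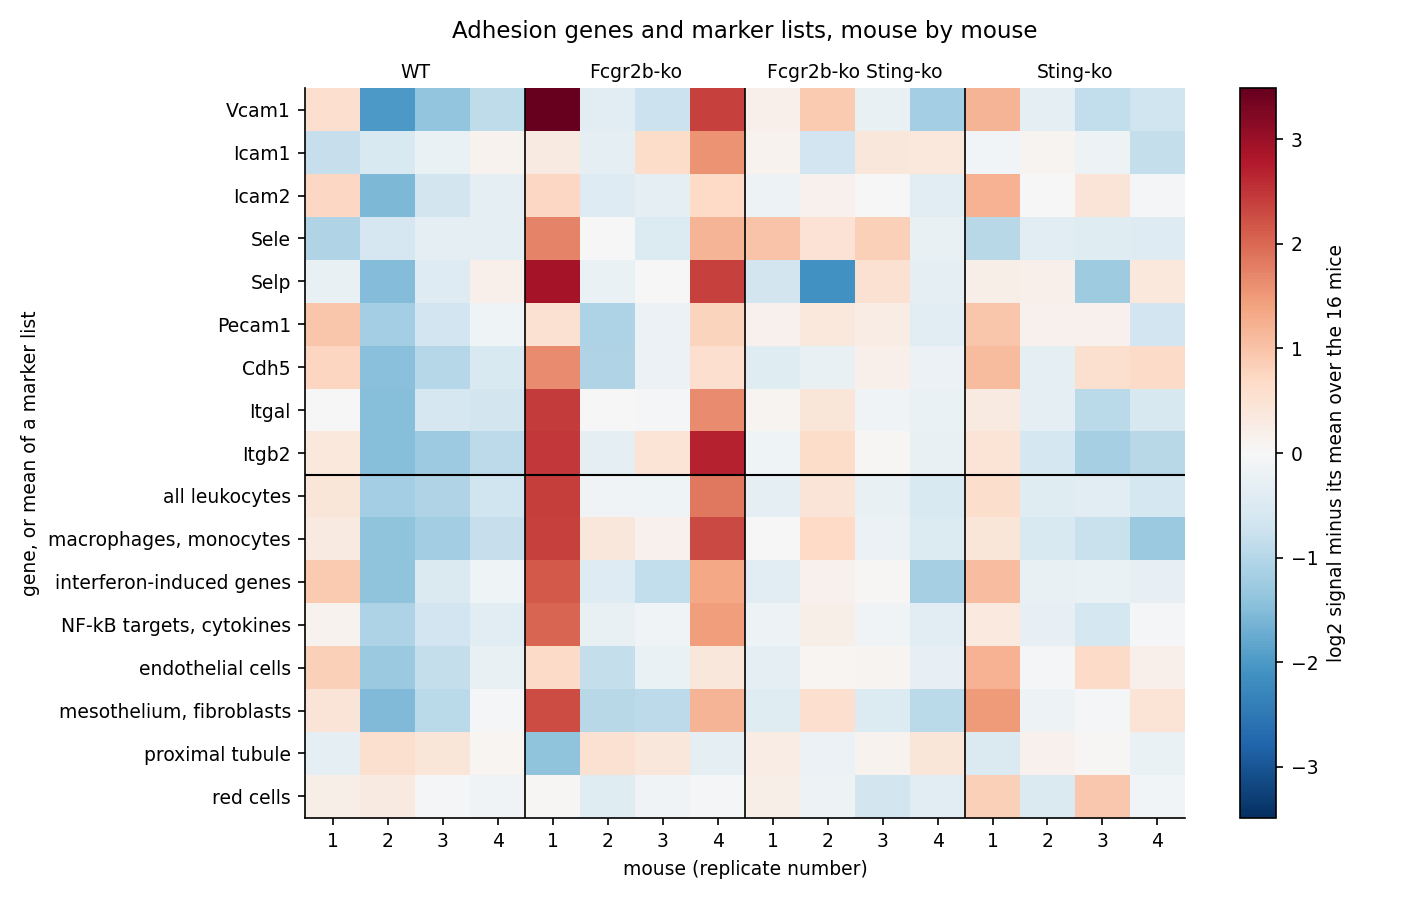
Log2 signal of each adhesion gene, and mean log2 signal of each marker list, minus its own mean over the 16 mice, with genotypes side by side and replicates 1 to 4 within each. Red columns at Fcgr2b-ko mice 1 and 4 and paler ones at WT mouse 1 and Sting-ko mouse 1 run through most adhesion genes and the leukocyte, interferon and fibroblast lists, and those mice are blue for proximal tubule markers.

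Genes that could induce or use the adhesion proteins were counted from lists in the same way. Of NF-kB targets and cytokines, 13 of 14 tested were higher in Fcgr2b-ko than in WT kidneys, with a median of 1.24, and none was called; Il1b (3.20) and Ccl2 (2.86) led, while Tnf was at -0.11 and Il1a was above background on 0 arrays. Of 8 receptors for TNF, IL-1, lymphotoxin and interferon all were higher, with a median of 0.41, and Tnfrsf1b led at 2.38. Interferon-induced genes were higher in 18 of 18, with a median of 0.73, led by Oas2 (2.27), and Irf7 was at 1.21. Their mean per mouse was 1.70, -0.62, 0.30 and 0.65 in WT and 2.92, 0.35, -0.06 and 2.15 in Fcgr2b-ko mice, so that of the Fcgr2b-ko mice only 1 and 4 passed WT mouse 1. It was 0.42, 0.95, 0.85 and -0.35 in DKO and 1.87, 0.53, 0.57 and 0.51 in Sting-ko mice, of which Sting-ko mouse 1 passed WT mouse 1 as well. Among partners of the adhesion genes, selectin ligands and the enzymes that modify them were higher in 7 of 12, with a median of 0.49. There the leukocyte sialophorin Spn (2.65) and the fucosyltransferase Fut7 (2.75), which completes selectin ligands, led. Further integrins and their activators were higher in 14 of 16 tested, with a median of 0.46. Itgax (2.51) and the adaptor Fyb (2.29) led, while Itgam was at -0.32. Further endothelial ligands were higher in 7 of 8 tested, with Cx3cl1 at 1.03, and other junction and transmigration genes in 9 of 14, with Cldn5 at 0.81 and Ocln at -0.41. None of these list genes was called.

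Variation between mice of a genotype was then measured with the genotype means removed, over all 16 mice and 27 relations of 9 genes with 3 lists, with permutation within genotypes and Benjamini-Hochberg adjustment. All 18 relations of Vcam1, Icam2, Pecam1, Cdh5, Itgal and Itgb2 passed at an adjusted p under 0.05, and none of the 9 relations of Icam1, Sele and Selp did. The share of all genes that pass against the same lists is not given here, so the 18 do not set these members apart from other genes. Sele was at background in 15 and Selp in 8 of the 16 mice, so for these genes the test does not show whether they follow the lists. Vcam1 followed the leukocyte markers with r = 0.978 and rho = 0.953 (permutation p = 5.0e-05 and 0.00014, adjusted 0.000337 and 0.000579). Itgb2 followed them with r = 0.955 and rho = 0.935 (permutation p = 0.00053 and 0.00057, adjusted 0.0013 and 0.00128), and Itgal with r = 0.943 and rho = 0.859 (permutation p = 0.00021 and 0.00486, adjusted 0.000648 and 0.00875). Icam2 followed the endothelial markers with r = 0.962 and rho = 0.944 (permutation p = 2.0e-05 and 4.0e-05, adjusted 0.00027 and 0.00036), Cdh5 with r = 0.925 and rho = 0.90 (permutation p = 7.0e-05 and 9.0e-05, adjusted 0.000378 and 0.000579) and Pecam1 with r = 0.918 and rho = 0.903 (permutation p = 0.00023 and 0.00027, adjusted 0.000648 and 0.00081). For Icam1 r was 0.131 with the endothelial, 0.114 with the leukocyte and 0.103 with the interferon list (rho 0.168, 0.159 and 0.112; permutation p = 0.67, 0.805 and 0.815 for r and 0.575, 0.647 and 0.74 for rho).

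Without the 2 mice farthest from the median of the list, r was 0.959 for Vcam1, 0.955 for Itgb2 and 0.905 for Itgal with leukocyte markers, and 0.941 for Icam2, 0.895 for Cdh5 and 0.863 for Pecam1 with endothelial markers. Icam1 moved to 0.362 with endothelial markers, 0.456 with leukocyte markers and 0.421 with interferon-induced genes, and its r with leukocyte markers was 0.388 on slide 1 and -0.587 on slide 2. Then 15 of the 27 relations passed, and those of Itgal with endothelial markers and of Cdh5 with leukocyte markers and interferon-induced genes no longer did. Scaling by the array median left 18. Inside a slide, with 8 mice, only 24 relabellings within genotypes exist and no permutation p can go below 0.0417, so that the 0 relations that passed on either slide say little. Genotype means were removed inside each slide. The only DKO mouse of slide 1 and the only Fcgr2b-ko mouse of slide 2 thus carried no deviation, and 2 mice of a genotype mirrored each other. Every r inside a slide therefore rests on fewer independent values than its 8 mice. On slide 2 r was 0.944 for Vcam1 and 0.922 for Itgb2 with leukocyte markers, and 0.916 for Icam2 and 0.957 for Pecam1 with endothelial markers. The same relations had r = 0.998, 0.972, 0.992 and 0.964 on slide 1. Other values of r differed more between the slides: Itgal with leukocyte markers had r = 0.990 on slide 1 and 0.686 on slide 2, and Cdh5 with endothelial markers 0.961 and 0.518. Cdh5 with leukocyte markers had r = 0.980 on slide 1 and -0.0443 on slide 2, and Itgal with endothelial markers 0.902 and -0.0555. The lists themselves varied together, with r = 0.842 between endothelial and leukocyte markers and 0.956 between leukocyte markers and interferon-induced genes after removal of genotype means, and -0.923 between leukocyte and proximal tubule markers, so that which list a gene follows cannot be told apart from these values.

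**Figure D4:**
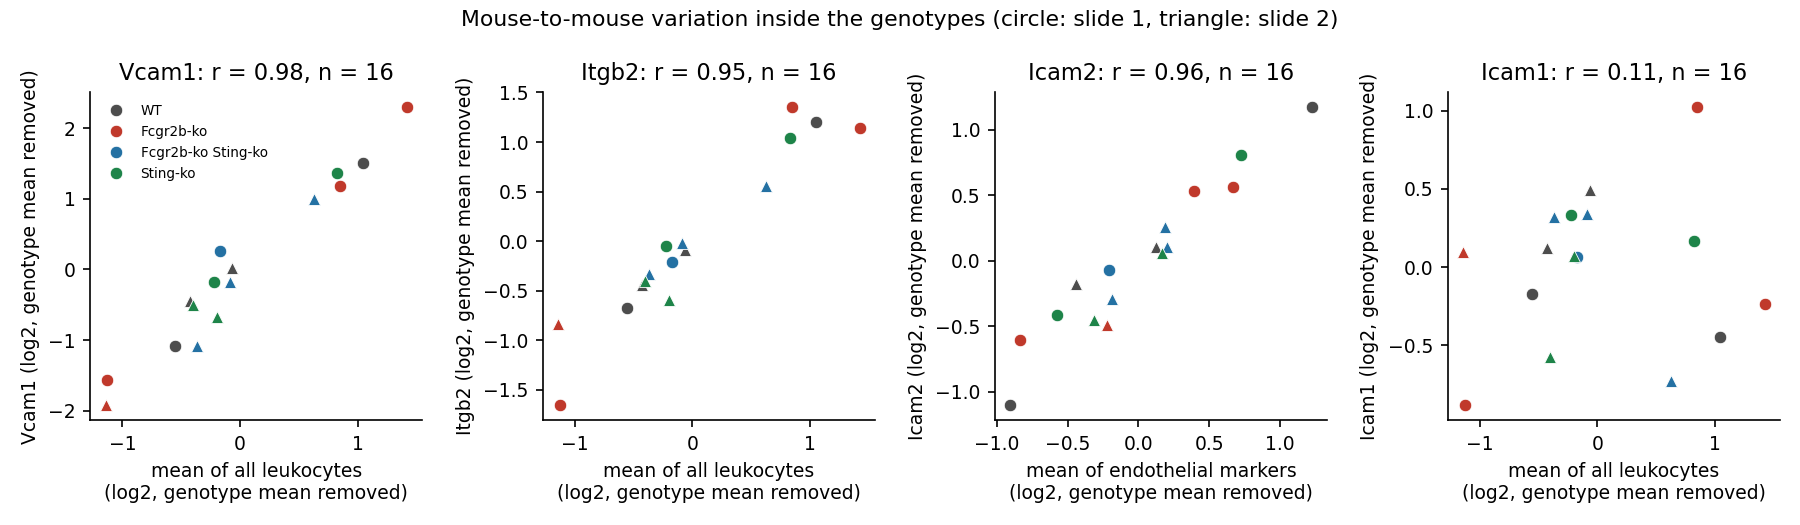
Log2 signal of Vcam1, Itgb2, Icam2 and Icam1 against the mean of a marker list in the same mouse, both with the mean of the genotype removed, for 16 mice coloured by genotype with circles for slide 1 and triangles for slide 2. Vcam1, Itgb2 and Icam2 lie along a line (r = 0.98, 0.95 and 0.96), and Icam1 does not (r = 0.11).

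The genes most alike across the 16 mice, by Pearson r over all tested named genes, differed by member, and their likeness is a description. Nearest to Vcam1 were Cyria (r = 0.981), Lpcat2 (0.978) and Anxa1 (0.977), and 7.22% of 16381 genes exceeded an r of 0.8 with it. Nearest to Itgb2 was Gm6377 (0.982), and nearest to Itgal were Fam167a, Tlr2 and Sirpb1a (0.974, 0.973 and 0.972). Cdh5 was most like Pde2a (0.980), Icam2 most like Stom (0.969), Pecam1 most like Myct1 (0.957) and Selp most like Rassf5 (0.959). For Icam1 the nearest was Fermt3 (0.896), a leukocyte integrin activator, and only 0.0977% of genes exceeded 0.8. Among the members, r over 16 mice was 0.955 between Itgal and Itgb2, 0.951 between Vcam1 and Itgal and 0.891 between Icam2 and Pecam1, and between Icam1 and the other 8 it ran from 0.177 with Cdh5 to 0.627 with Selp.

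Each member was finally set against a marker list within the same mouse, a comparison chosen after the values were seen. A ratio within an array shows unequal change and not that a gene did not change. Relative to the leukocyte mean, Itgal was at -3.74, -3.63, -2.86 and -3.30 in WT mice and -3.32, -3.19, -3.24 and -3.53 in Fcgr2b-ko mice, a difference of 0.06 log2 in place of 1.69 (exact permutation p = 0.771, n = 4). Vcam1 relative to that mean was higher in Fcgr2b-ko than in WT kidneys by 0.48 in place of 2.11 (exact permutation p = 0.314, n = 4). Itgb2 relative to that mean was at -1.75, -2.03, -1.93 and -1.94 in WT mice and -1.69, -1.93, -1.10 and -0.90 in Fcgr2b-ko mice. In DKO mice it was at -1.52, -1.54, -1.41 and -1.45 and in Sting-ko mice at -1.86, -1.90, -2.48 and -2.07. All 4 DKO mice lay above all 4 WT mice and all 4 Sting-ko mice, by 0.43 and 0.60 on average (exact permutation p = 0.0286 for both, the smallest the design allows), and Fcgr2b-ko mice were higher than WT mice by 0.51 with overlap (exact permutation p = 0.0857). Relative to the endothelial mean, the SD within genotypes was 0.18 for Icam2, 0.29 for Pecam1 and 0.33 for Cdh5, from 0.65, 0.72 and 0.82. On that scale the Fcgr2b-ko minus WT difference was 0.24 for Icam2, -0.11 for Pecam1 and 0.43 for Cdh5, with overlap in each case (exact permutation p = 0.171, 0.429 and 0.114, n = 4). Of 90 such differences, 10 had an exact permutation p of 0.0286 and none passed adjustment (smallest adjusted p 0.245). Such a p means that groups do not overlap, and of all 16390 named genes tested, set against the same lists, 3.82% did not overlap on average over lists and comparisons. The share reached 14.3% relative to leukocyte markers in Fcgr2b-ko against WT kidneys, and for DKO it was 2.78% against WT and 1.69% against Sting-ko kidneys. Besides the pair for Itgb2, they were Itgb2 relative to endothelial markers in Fcgr2b-ko against WT (1.76), DKO against WT (0.62) and DKO against Sting-ko kidneys (1.24), and Itgal relative to endothelial markers in DKO against Sting-ko kidneys (1.03). Relative to leukocyte markers they were Pecam1 in Fcgr2b-ko against WT (-1.36) and Icam2 in Sting-ko against WT (0.44) and DKO against Sting-ko kidneys (-0.54). The last was Sele, at background, relative to endothelial markers in DKO against Sting-ko kidneys.

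**Figure D5:**
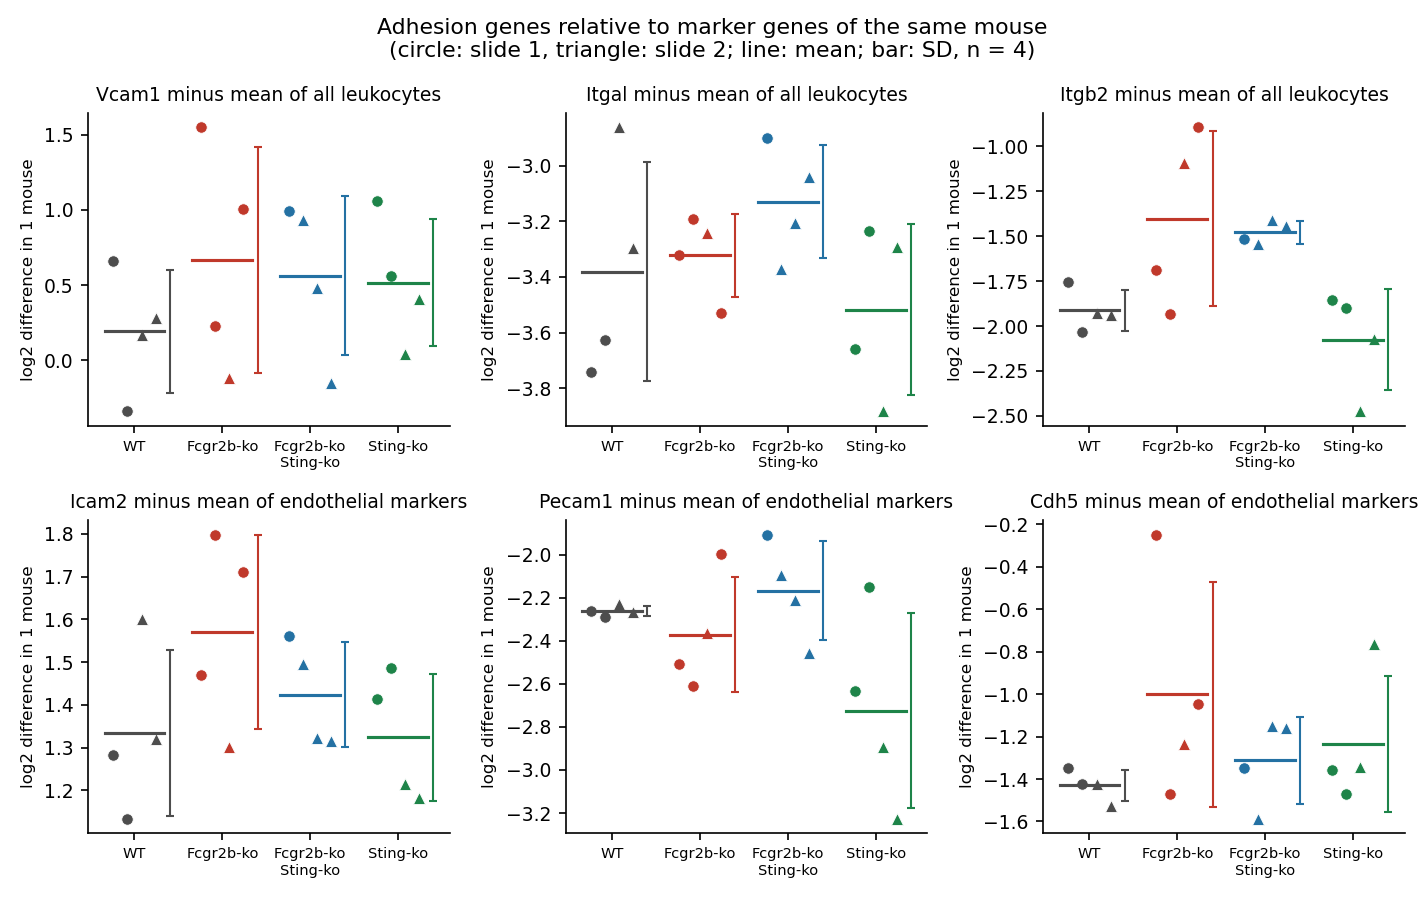
Log2 difference between an adhesion gene and the mean of a marker list in the same mouse, by genotype, with circles for slide 1, triangles for slide 2, a line at the mean and a bar for the SD (n = 4). Itgb2 relative to leukocyte markers lies between -1.54 and -1.41 in the 4 DKO mice, above the 4 WT mice at -2.03 to -1.75.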

How the data were processed

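The values are signals of one-colour Cy3 arrays that the authors deposited. The scanner values are intensity, spot brightness after background subtraction and detrending by the authors with Agilent Feature Extraction 11.0 and no scaling between arrays. The deposited flags of that software are a unit of another kind, yes or no for each spot, and set which probes were well above background. The table deposited by the authors holds log2 values whose normalization they did not state; arrays with the same replicate number share a distribution in it, all 16 of its columns were closest to their own array, 0 were unmatched, and it served as an alternative only.

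Processed signal was taken to log2, averaged over the spots of a probe and reduced by the array's 75th percentile. Of 56605 probes, 32994 (58.3%) were named through RefSeq transcripts, and a gene was read by its brightest probe. A probe was tested if 4 or more of the 16 arrays put it well above background (35628 probes), with limma 3.58.1 in R 4.3.3 by lmFit and eBayes with 1 mean per group over all 16 arrays, two-sided, Benjamini-Hochberg over all probes, called at an adjusted p under 0.05 and at least 2-fold. Fits over all arrays pool the spread of the 4 groups. Exact permutation tests were two-sided, and correlations used 100000 permutations within genotypes (scipy 1.17.1, numpy 2.4.6, pandas 2.3.3, Python 3.11.15, figures by matplotlib 3.10.9).

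The members and the gene lists were chosen with earlier results of these data known. Named genes were drawn from the members, Fcgr2b and Sting1, called genes, and the 3 genes most like each member. From each list came the gene with the brightest probe and the 2 largest differences in either direction in Fcgr2b-ko against WT. Probe brightness served to pick a name and does not rank abundance. Marker genes at background on every array were named after their values were seen. Alternatives were normexp background correction (offset 50), quantile and median scaling, the authors' table, other filters on dim probes, only the groups compared and exact Mann-Whitney tests. Normexp took the median spot signal as input in place of the processed signal, so input and correction changed together. Further alternatives were no fold threshold, the trend and robust options of eBayes, slide or replicate number as a block, each slide alone, each array left out, and the median over the probes of a gene.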

Additional observations from a re-analysis of the deposited data

Results flagged for a closer look

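In 36 groups of 4 mice, 9 genes by 4 genotypes, the gap between the most extreme mouse and its nearest neighbour was compared with the range of the group. It passed the critical value of Dixon's test at 0.05 in 2 of them, and chance alone passes it in about 1 in 20 groups. Sele in Sting-ko mouse 1 was at -7.29, away from the nearest mouse at -6.75, a ratio of gap to range of 0.902, with all 4 signals at background. Selp in Sting-ko mouse 3 was at -5.97, away from the nearest at -4.57, a ratio of 0.881. Both stood apart on the low side.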

How the results depend on the processing

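Of 255 values of the 8 members recomputed in each comparison, the sign was reversed in 1 in Fcgr2b-ko against WT, 7 in DKO against Fcgr2b-ko, 5 in DKO against WT, 9 in Sting-ko against WT and 13 in DKO against Sting-ko kidneys, and in 3 of 239 in the interaction; 0 passed the threshold. Only 114 to 122 of the 255, and 186 of the 239, moved at all, since most other settings change only the test, the filter or groups outside the comparison and keep the sign by construction. Reversed were, in DKO against Fcgr2b-ko kidneys, Vcam1 (0.565), Icam2 (0.257), Cdh5 (0.118) and Itgal (0.0659) on slide 2, which holds 1 Fcgr2b-ko mouse, Pecam1 with normexp (-0.00808) and without Fcgr2b-ko replicate 2 (-0.267; -0.267 to 0.347 with an array left out) and Cdh5 without Fcgr2b-ko replicate 1 (0.0504; -0.857 to 0.0504), and, in Fcgr2b-ko against WT kidneys, Pecam1 without WT replicate 2 (-0.0385; -0.0385 to 0.682). In DKO against WT kidneys they were Selp on slide 1 and without WT replicate 4 or DKO replicate 2, Cdh5 on slide 1 and Icam2 without WT replicate 2. In Sting-ko against WT kidneys they were Icam1 with quantile (-0.092) and median scaling (-0.129), the authors' table (-0.087), on slide 2 and without WT replicate 1, Selp on slide 2 and by the median of its probes (-0.351), Itgal on slide 2 and Itgb2 without Sting-ko replicate 1. In DKO against Sting-ko kidneys they were Pecam1 (7 settings), Vcam1 (5) and Itgb2 (slide 1), and in the interaction Vcam1, Itgal and Pecam1 on slide 2. The cause was not tested. Selp had no value when a probe had to be above background on all 16 arrays. In Fcgr2b-ko against WT kidneys the 18 probes called became 5 with normexp, where input signal and background correction changed together. They became 7 with the authors' table, 0 with probes above background on all arrays and 0 with only the groups compared. Mann-Whitney called 144 unadjusted and 0 adjusted, slide 1 gave 67, and leaving out an array gave 0 to 37. Slide 2 holds only 1 Fcgr2b-ko mouse and is not counted here. The labels give mice of the same number nothing else in common, although their arrays share a distribution in the authors' table. Deviations from the group mean of same-numbered mice had a median r of -0.0575 over 24 pairs, beside -0.0336 for other numbers, but between WT and Fcgr2b-ko mice r was 0.689, 0.602, -0.0721 and 0.488 for numbers 1 to 4, and 5 of 16 mice were closest to a mouse of their own number. The replicate block gave 16 probes and 0 members (smallest adjusted p of a member from limma 0.406), with 3 members at an unadjusted p under 0.05 in DKO against Fcgr2b-ko, 2 in Sting-ko against WT and 2 in the interaction. In DKO against Fcgr2b-ko kidneys unadjusted Mann-Whitney called 41 in place of 0, and leaving out an array gave 0 to 0. In DKO against WT kidneys 0 became 1 with normexp, 1 with probes above background on all arrays, 3 with only the groups compared, 63 by unadjusted Mann-Whitney, 2 on each slide, and 0 to 1 with an array left out. In Sting-ko against WT kidneys 0 became 127 by unadjusted Mann-Whitney and 45 on slide 1, and in DKO against Sting-ko kidneys 171 by unadjusted Mann-Whitney, 2 with only the groups compared and 0 to 1 with an array left out. The interaction gave 0 throughout. The 18 relations across mice became 0 on slide 1 and 0 on slide 2, where fewer mice allow no permutation p below 0.0417. Signal over background limits Sele and Selp.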
